A study of Mus musculus with 4 samples.

Results

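Wnt signalling genes were examined in breast cancer cells grown from tumours of MMTV-Neu mice. These mice carry a Neu (Her2) oncogene under the promoter of the mammary tumour virus, which is active in the mammary epithelium. The members were 47 genes of the pathway, from ligands to feedback inhibitors, picked by symbol from the 31829 gene names on a mouse array. All 47 had a probe, with 62 of the 39429 probes in all, and the brightest probe stood for a gene. The groups were cells labelled Pak1-/-, that is, without the gene of the p21-activated kinase Pak1 by their label, and cells labelled Pak1+/+, with 2 samples each and one array per sample. The series design says that 2 different tumours were used per group, and the methods describe the material as cell lines derived from tumours, so a sample may be a line and not an animal. All cells carried the Neu transgene, were kept in low calcium medium with 5% horse serum, went without serum for 3 h and received EGF for 15 min before RNA was taken. The age of the mice was not given in the sources used here, and the p-values measure only the spread between these samples.

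Wnt proteins are secreted lipid-modified ligands that bind Frizzled receptors, together with Lrp5 or Lrp6 in the canonical branch. In that branch the complex of Axin, Apc and Gsk3b stops degrading beta-catenin, which enters the nucleus and acts with Lef1 and the Tcf factors on target genes such as Axin2, Myc and Ccnd1. Other ligands, Wnt5a among them, act mainly through Ror receptors and the planar polarity proteins on cell shape and movement. In the mammary gland Wnt4 mediates part of the progesterone response that drives side branching, and Wnt1 was found as a gene activated by the mammary tumour virus.

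Pak1 was examined first because it checks the labels. Its only probe read 12.21 and 12.25 log2 under the label Pak1-/- and 12.04 on both arrays of the other label. With a difference of 0.19 (SE 0.07, adjusted p = 0.070 in limma), the probe was not lower where the label says that the gene is missing, and every direction here follows the labels. The arrays shared 1 slide and 1 scan, but each array had its own position on the slide, so position and genotype cannot be told apart. Between 62.2% and 70.4% of the probes were well above background on an array, with a median spot intensity of 322 to 331 over a local background of 39.0 to 42.0.

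Of the 47 genes, 35 were bright enough to be tested. In the Pak1-/- arrays 11 were higher, 8 were lower and 16 did not pass an adjusted p of 0.05. Wnt4, counted among those higher, was bright enough to be tested only through the Pak1-/- arrays. The share past the threshold was 54.3%, beside a background of 51.0% among the 21961 genes tested, of which 22.8% were higher and 28.2% lower. The members as a list were therefore close to what the whole array showed. A difference of at least 1 log2 in a gene past the threshold, which is at least 2-fold, was seen for 5 members in each direction (14.3% each), against 7.00% and 5.62% of all genes. The median difference was 0.12 log2 for the members and −0.055 for all genes, and it was 0.04 over the 34 members left when Wnt4 was set at its bound and Wnt10b, for which no bound could be given, was left out. Its sign was not stable, as it was −0.048 both without a filter on dim probes and with one on all 4 arrays, and 0.018 without Pak1+/+ replicate 1 and 0.022 without Pak1-/- replicate 1. For 28 of the 35 members the groups held apart without overlap, beside 77.6% of all genes. For the typical member, the 2 replicates of a group lay 0.098 log2 apart in the Pak1-/- arrays and 0.12 apart in the Pak1+/+ arrays (medians), and the group means lay 0.32 apart.

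**Figure D1:**
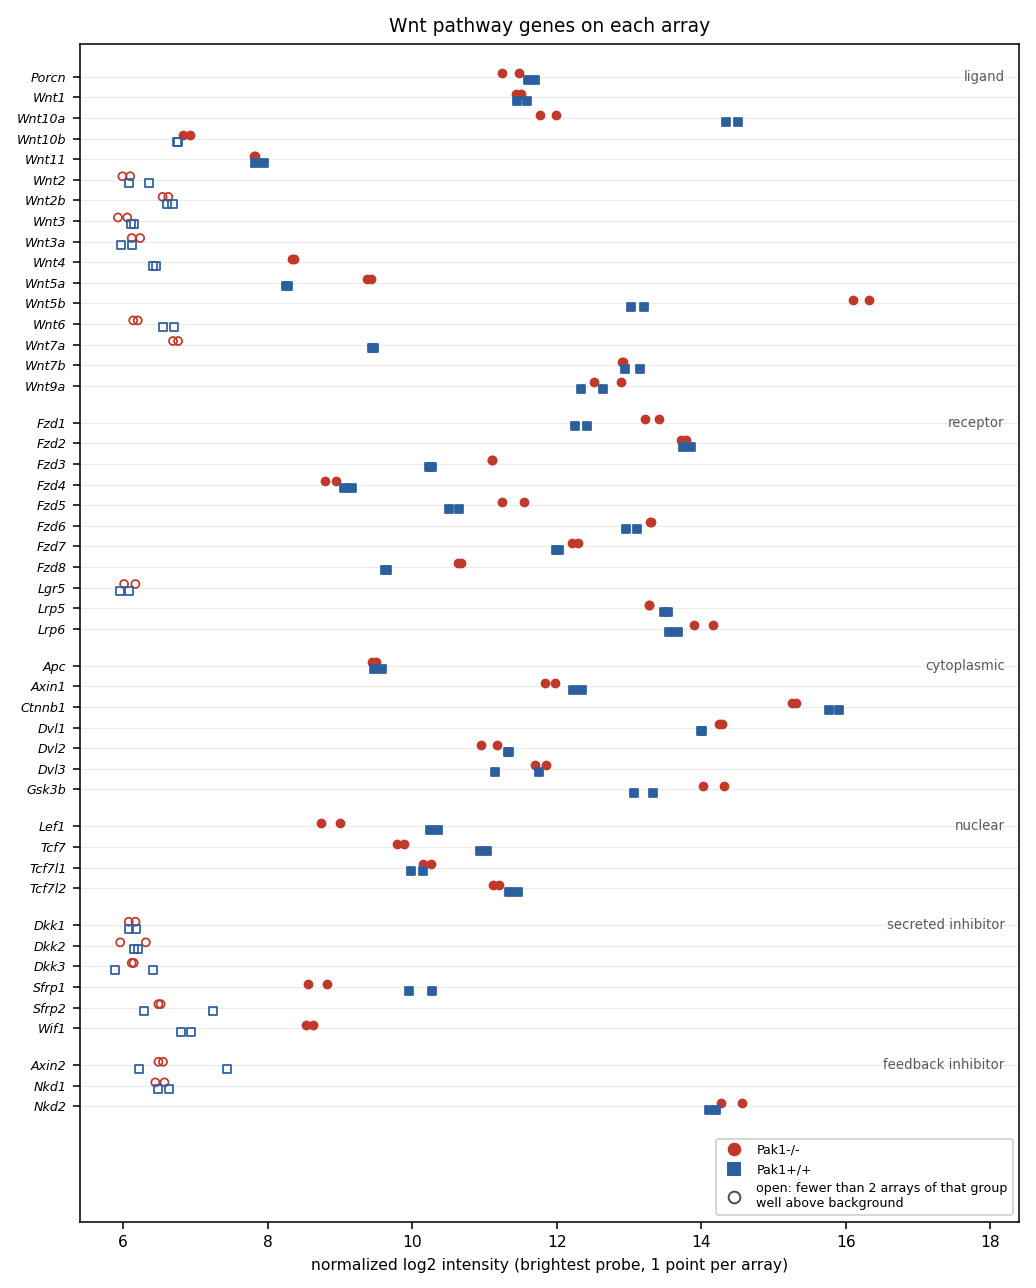
Normalized log2 intensity (x axis) of the brightest probe of each of the 47 Wnt pathway genes (y axis, grouped by role), with 1 point per array and 2 arrays per genotype. Open symbols mark a group in which fewer than 2 arrays were well above background. Wnt5b, Wnt7a and Wnt10a show the widest gaps between the genotypes, while the Dkk genes, Wnt3 and Lgr5 lie at the left edge in both.

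The promoters of 4 members past the threshold are printed because they hold the core letters of the Tcf/Lef recognition motif, the nuclear end of the canonical branch. They run 5′ to 3′ over the 250 bases before a RefSeq transcript start on GRCm38.p6, in lower case, with CTTTGA or its reverse complement TCAAAG in capitals. The Fzd1 window is chr5:4758217-4758466 on the minus strand, that of Gsk3b is chr16:38088751-38089000 on the plus strand, that of Lef1 is chr3:131156044-131156293 on the plus strand and that of Wnt5b is chr6:119449387-119449636 on the minus strand.
Fzd1: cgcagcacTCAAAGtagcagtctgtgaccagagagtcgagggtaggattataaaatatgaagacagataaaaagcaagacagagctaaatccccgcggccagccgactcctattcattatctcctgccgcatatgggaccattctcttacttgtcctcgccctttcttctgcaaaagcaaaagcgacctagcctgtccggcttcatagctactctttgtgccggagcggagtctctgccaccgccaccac
Gsk3b: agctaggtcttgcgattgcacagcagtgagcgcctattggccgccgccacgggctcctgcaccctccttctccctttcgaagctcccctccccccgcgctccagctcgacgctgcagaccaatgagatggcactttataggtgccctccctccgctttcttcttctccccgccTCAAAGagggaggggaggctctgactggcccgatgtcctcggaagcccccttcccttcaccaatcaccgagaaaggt
Lef1: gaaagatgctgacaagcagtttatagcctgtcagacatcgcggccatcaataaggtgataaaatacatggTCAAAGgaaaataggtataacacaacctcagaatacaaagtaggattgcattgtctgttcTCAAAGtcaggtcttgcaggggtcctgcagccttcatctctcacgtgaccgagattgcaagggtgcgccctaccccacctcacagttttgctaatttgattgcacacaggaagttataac
Wnt5b: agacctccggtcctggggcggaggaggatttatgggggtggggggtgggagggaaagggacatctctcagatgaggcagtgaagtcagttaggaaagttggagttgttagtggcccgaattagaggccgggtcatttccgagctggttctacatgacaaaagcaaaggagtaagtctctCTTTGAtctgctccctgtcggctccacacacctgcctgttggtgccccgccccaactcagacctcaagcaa
The match began 242 bases before the start in Fzd1, 77 in Gsk3b and 71 in Wnt5b, and Lef1 held 2, beginning 180 and 120 bases before it. Promoters were found for 32 of the 47 members (41 promoters), and 6 of the 41 (14.6%) held the letters on either strand. The share was 13.8% among 32851 promoters of the same length, so the motif was about as frequent in the members as elsewhere, and 3 of these 4 genes were higher and 1 lower in Pak1-/-. A match in this window is a description of letters and not a binding site.

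Among the ligands, Wnt5b, Wnt4 and Wnt5a rose and Wnt7a and Wnt10a fell in the Pak1-/- arrays, each by at least 1 log2. Of the 15 Wnt genes 10 were tested, with 3 higher, 2 lower and 5 not past the threshold, so that 50% passed, near the 51.0% of all genes (22.8% higher and 28.2% lower). Wnt5b and Wnt5a are close paralogs known mainly for signalling that does not use beta-catenin. Wnt5b (probe at mm9 chromosome 6, 119382550 to 119382609) read 16.32 and 16.10 log2 in Pak1-/- and 13.03 and 13.20 in Pak1+/+. That is a difference of 3.10 (SE 0.11, adjusted p = 0.00016), or 8.55-fold, and the highest positive difference of any member. Wnt5a (chromosome 14, 29336664 to 29336723) was 9.42 and 9.38 against 8.28 and 8.25, a difference of 1.13 (SE 0.07, adjusted p = 0.00052, 2.19-fold). The replicates of both genes lay much closer to each other than to the other genotype.

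Wnt4, the ligand known for side branching of the mammary ducts, was seen only in the Pak1-/- arrays. Its probe (chromosome 4, between 136851690 and 136852258, a span longer than the 60-base probe) read 8.37 and 8.34 in Pak1-/- and 6.46 and 6.41 in Pak1+/+, where it was not well above background on either array. The probe was bright enough to be tested only through the Pak1-/- arrays, so no p-value is given for it. Wnt4 was at least 2.80-fold higher. This bound sets the Pak1-/- mean against the dimmest signal that still counted as above background. With no background offset the log2 difference was 2.93 and with the scanner's processed signal 3.97, against 1.92 here, so the size of this difference depends on how dim signal is treated.

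Wnt7a and Wnt10a went the other way. Wnt7a (chromosome 6, 91314653 to 91314712) was 6.76 and 6.69 in Pak1-/- and 9.44 and 9.47 in Pak1+/+, and was well above background on only 1 of the 2 Pak1-/- arrays. The difference was −2.73 (SE 0.07, adjusted p = 8.4e-05, 6.64-fold), the most negative of any member, and it reached −4.22 with the processed signal. Wnt10a (chromosome 1, 74850633 to 74850692), a ligand of the canonical branch known from tooth, hair and skin, stayed bright in both groups. It was 11.99 and 11.77 in Pak1-/- and 14.34 and 14.50 in Pak1+/+, a difference of −2.54 (SE 0.11, adjusted p = 0.00024, 5.81-fold). Wnt6, which lies next to Wnt10a on chromosome 1, was not well above background on any array, at 6.20 and 6.14 against 6.70 and 6.55. Without a filter on dim probes it was lower by 0.45 log2 (adjusted p = 0.022), and it was the only one of the dim members to pass in that way.

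The remaining Wnt genes differed little or were not detectable at this signal. Wnt1 read 11.43 and 11.51 in Pak1-/- and 11.45 and 11.59 in Pak1+/+, and the difference of −0.05 (SE 0.09) lay within the spread between replicates. The other probe of Wnt1 was not well above background on any of the arrays, with values from 6.43 to 6.54, so the probes do not give the same answer on whether Wnt1 was detected. The differences of Wnt7b (−0.14, SE 0.10), Wnt9a (0.21, SE 0.17), Wnt10b (0.12, SE 0.07) and Wnt11 (−0.07, SE 0.08) did not pass the threshold either, and Wnt10b was well above background in the Pak1-/- arrays alone. Wnt2, Wnt2b, Wnt3, Wnt3a and Wnt6 had no array well above background, with values between 5.93 and 6.70. Porcn, the enzyme that attaches the lipid to Wnt proteins, was 11.48 and 11.24 against 11.60 and 11.70 (−0.30, adjusted p = 0.078). Its difference was −0.42 without Pak1-/- replicate 1 and −0.18 without Pak1-/- replicate 2.

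**Figure D2:**
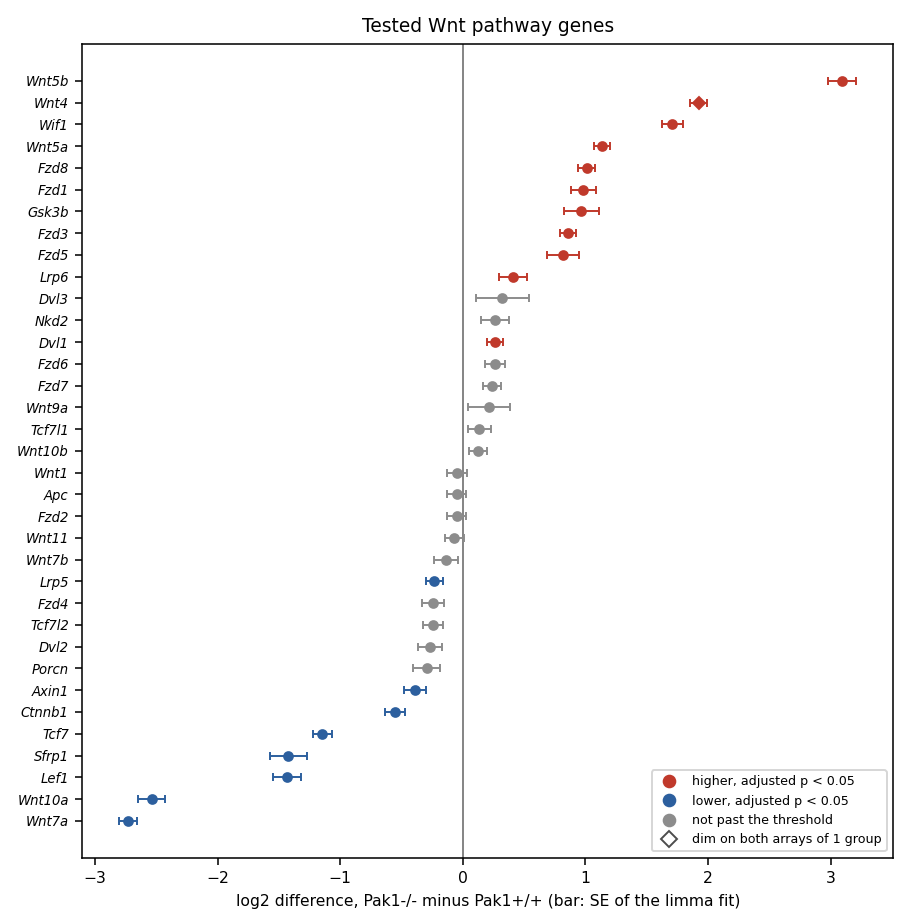
Log2 difference between Pak1-/- and Pak1+/+ (x axis) for the 35 tested Wnt pathway genes (y axis, in order of the difference), with 2 arrays per genotype and bars for the SE of the limma fit. Points run from −2.73 for Wnt7a to 3.10 for Wnt5b, red and blue points passed the threshold and the diamond is Wnt4, which was dim in Pak1+/+. Wnt10b was also dim on both Pak1+/+ arrays but had no bound and is drawn as a circle.

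Among the receptors, 4 of the 8 Frizzled genes rose and none fell on its brightest probe. That is 50% of them past the threshold, at the background share of 51.0% of all genes (22.8% higher). Fzd8 was 10.67 and 10.63 in Pak1-/- and 9.65 and 9.62 in Pak1+/+, which is higher by 1.01 log2 (SE 0.07, adjusted p = 0.00069, 2.01-fold). Fzd1 was 13.41 and 13.23 against 12.41 and 12.26 (0.98, SE 0.10, adjusted p = 0.0021), and Fzd3, which is known for its part in axon guidance, was 11.10 and 11.11 against 10.23 and 10.27 (0.86, SE 0.07, adjusted p = 0.0010). The 2 groups did not overlap for any of these genes, which was so for 77.6% of all genes. Fzd5 rose by 0.82 (SE 0.13, adjusted p = 0.0068) on its brightest probe and by 0.36 (adjusted p = 0.025) on the other. Fzd6 (0.26, adjusted p = 0.054), Fzd7 (0.24, adjusted p = 0.050, just above the threshold) and Fzd4 (−0.24, adjusted p = 0.081) did not pass. Both Fzd6 and Fzd7 passed as higher with cyclic loess and with a filter on all 4 arrays, and Fzd7 also with the deposited log2 values. The probes of Fzd2 disagreed: the brightest differed by −0.05 (adjusted p = 0.61), while the other was lower in Pak1-/-, at 8.49 and 8.41 against 9.26 and 9.45 (−0.90, adjusted p = 0.0022). As the mean over its probes, Fzd2 differed by −0.48 (adjusted p = 0.011).

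The co-receptors of the canonical branch moved by less than 0.5 log2 and in opposite directions. Lrp6 was 14.16 and 13.89 in Pak1-/- and 13.56 and 13.68 in Pak1+/+ (0.41, SE 0.12, adjusted p = 0.039), and its second probe differed by 0.08 (adjusted p = 0.38). Lrp5 was 13.27 and 13.28 against 13.53 and 13.48 (−0.23, SE 0.07, adjusted p = 0.042). The call of Lrp6 was lost without Pak1-/- replicate 1 (adjusted p = 0.11), Pak1+/+ replicate 1 (0.14) or Pak1+/+ replicate 2 (0.074), and that of Lrp5 when any single sample was left out (adjusted p from 0.093 to 0.20). With all samples, Lrp6 also failed to pass with no offset (adjusted p = 0.053), the processed signal (0.086), no filter (0.067), the replicate block (0.056) and the mean over its probes (0.070), and Lrp5 with no offset (0.053), cyclic loess (0.14), no filter (0.073) and the replicate block (0.085). Lgr5, the R-spondin receptor that marks stem cells in the intestine, was not well above background on any array, at 6.01 and 6.17 against 5.96 and 6.09.

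In the cytoplasm, Ctnnb1 and Axin1 fell while Gsk3b and Dvl1 rose. Ctnnb1, which encodes beta-catenin, was 15.31 and 15.26 in Pak1-/- and 15.90 and 15.77 in Pak1+/+, a difference of −0.56 (SE 0.08, adjusted p = 0.0053, 1.47-fold). Gsk3b, the kinase that marks beta-catenin for degradation, was 14.31 and 14.03 against 13.07 and 13.34 (0.97, SE 0.14, adjusted p = 0.0057), and its other 2 probes rose by 0.62 (adjusted p = 0.0056) and 0.52 (adjusted p = 0.0083). Both genes kept their groups apart, as did 77.6% of all genes. The scaffold Axin1 fell by 0.39 (SE 0.09, adjusted p = 0.021), a call that was lost without Pak1-/- replicate 1 (adjusted p = 0.079) or Pak1+/+ replicate 1 (0.10). The Dishevelled gene Dvl1, which relays the signal from Frizzled, rose by 0.26 (SE 0.07, adjusted p = 0.030), and this was lost when any single sample was left out (adjusted p from 0.060 to 0.14), with the processed signal (0.064), with the corrected signal scaled to the 75th percentile (0.065), with no filter (0.054) and with the replicate block (0.065). Dvl2 (−0.27, adjusted p = 0.078) and Dvl3 (0.32, adjusted p = 0.27) did not pass, and Dvl3 read 11.15 on one Pak1+/+ array and 11.75 on the other. The difference of Dvl3 was 0.62 without Pak1+/+ replicate 2 and 0.018 without Pak1+/+ replicate 1. That of Dvl2 was −0.38 without Pak1-/- replicate 2 and −0.11 as the mean over its probes. The tumour suppressor Apc was 9.50 and 9.44 against 9.58 and 9.46 (−0.05, adjusted p = 0.63).

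In the nucleus, 2 of the 4 Tcf/Lef factors fell by more than 1 log2 and none rose on its brightest probe. The share past the threshold (50%) was that of all genes (51.0%), and 5.62% of all genes fell by at least 1 log2. Lef1 (probe spanning chromosome 3, 130907851 to 130926012) was 8.74 and 8.99 in Pak1-/- and 10.36 and 10.25 in Pak1+/+. It fell by 1.44 (SE 0.11, adjusted p = 0.0010, 2.70-fold), and the promoter shown above with 2 motif matches is 1 of the 4 promoters of this gene. Tcf7 (chromosome 11, 52066114 to 52066173), which encodes Tcf1, was 9.79 and 9.89 against 11.03 and 10.94, lower by 1.15 log2 (SE 0.08, adjusted p = 0.00074, 2.21-fold). Its second probe gave −1.14 (adjusted p = 0.0018). Tcf7l1, known mostly as a repressor, was 10.25 and 10.15 against 10.15 and 9.98 (0.14, adjusted p = 0.28). The 3 probes of Tcf7l2 matched different transcript records and did not move alike. The brightest was 11.20 and 11.12 against 11.34 and 11.46 (−0.24, adjusted p = 0.060), the second rose by 0.53 (adjusted p = 0.015) at 11.30 and 11.12 against 10.58 and 10.78, and the third differed by 0.12 (adjusted p = 0.25).

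Of the secreted inhibitors, 2 of 6 could be tested and they moved in opposite directions. Wif1, a secreted protein that binds Wnt ligands, was 8.53 and 8.63 in Pak1-/- and 6.94 and 6.79 in Pak1+/+, where 1 of the 2 arrays was well above background. It rose by 1.71 (SE 0.09, adjusted p = 0.00035, 3.27-fold), or by 2.97 with the processed signal. Sfrp1, a decoy with a Frizzled-like domain, was 8.56 and 8.82 against 10.27 and 9.95 and fell by 1.42 (SE 0.15, adjusted p = 0.0021, 2.68-fold). None of Dkk1, Dkk2, Dkk3 and Sfrp2 was well above background on an array. Of the feedback inhibitors, which canonical signalling itself induces in many tissues, only Nkd2 was tested. It was 14.56 and 14.28 in Pak1-/- and 14.20 and 14.11 in Pak1+/+ (0.26, adjusted p = 0.13), while its second probe rose by 0.38 (adjusted p = 0.014). Nkd1 was dim on all 4 arrays. Axin2, widely read as a gauge of canonical signalling, was 6.49 and 6.55 in Pak1-/- and 6.21 and 7.43 in Pak1+/+, with 1 array well above background, and its other probe was dim throughout. A difference in Axin2 was thus not detectable at this signal.

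A further 52 genes of the pathway, from a list written with earlier results of these data known, showed more increases than decreases. Of 38 tested, 19 were higher (50%), 4 were lower (10.5%) and 15 did not pass, so 60.5% were past the threshold, beside 51.0% of all genes (22.8% higher and 28.2% lower). Genes tied to planar polarity were picked out of it after their values were seen, so their count is no result: Celsr1, Celsr2, Vangl1, Vangl2 and Prickle1 rose, Ptk7 differed by 0.21 (adjusted p = 0.065), and Daam1, an effector of that branch, fell by 0.45 (adjusted p = 0.011). Daam1 did not pass without Pak1-/- replicate 2 (adjusted p = 0.052) or Pak1+/+ replicate 1 (0.059). Celsr1 (chromosome 15, 85729381 to 85729440), an atypical cadherin, was 15.28 and 14.84 in Pak1-/- and 8.90 and 8.87 in Pak1+/+. The difference of 6.18 (SE 0.16, adjusted p = 8.4e-05) is 72.4-fold, on the only probe of the gene. Prickle1 was 11.88 and 11.64 against 9.52 and 9.60 (2.20, SE 0.11, adjusted p = 0.00031). Vangl1 rose by 0.65 and Vangl2 by 0.83, both on every one of their probes, while Celsr2 rose by 0.55 on its brightest probe only and did not pass once Pak1-/- replicate 2 was left out (adjusted p = 0.053). Ror1, a receptor for Wnt5a, was 8.37 and 8.29 against 7.02 and 7.23 (1.20, SE 0.10, adjusted p = 0.0012), or 1.93 with the processed signal, and Ror2 was dim on all arrays.

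Other genes of that list also lay on both sides of the pathway. Wls, which carries Wnt proteins to the cell surface, rose by 0.94 (SE 0.11, adjusted p = 0.0030). The co-repressors Tle1, Tle2 and Tle3 rose by 0.51, 0.93 and 0.81 on their brightest probes. The other probes of Tle1 differed by 0.49 (adjusted p = 0.0048) and 0.12 (adjusted p = 0.23). Tle4 differed by −0.16 (adjusted p = 0.16) on its brightest probe and was lower by 0.59 (adjusted p = 0.014) on the other. The beta-catenin partners Bcl9, Bcl9l and Pygo2 rose by 1.14, 0.71 and 0.62, and so did Ctnnbip1, which blocks the binding of beta-catenin to Tcf factors, by 0.78. The widest decrease was that of Fzd9, a Frizzled gene outside the 47, at 7.88 and 8.22 in Pak1-/- and 12.29 and 12.14 in Pak1+/+ (−4.17, SE 0.14, adjusted p = 0.00014, 18.0-fold). Rspo3, a ligand of the Lgr receptors, was 6.34 and 6.54, dim on both Pak1-/- arrays, against 7.61 and 7.82, so it was at least 2.14-fold lower. It was bright enough to be tested only through the Pak1+/+ arrays, so no p-value is given for it. With no background offset its log2 difference was −2.13 and with the processed signal −3.07, against −1.27. Apc2 also fell, by 0.49, but no longer passed without Pak1-/- replicate 1 or Pak1+/+ replicate 2 (adjusted p = 0.069 each).

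**Figure D3:**
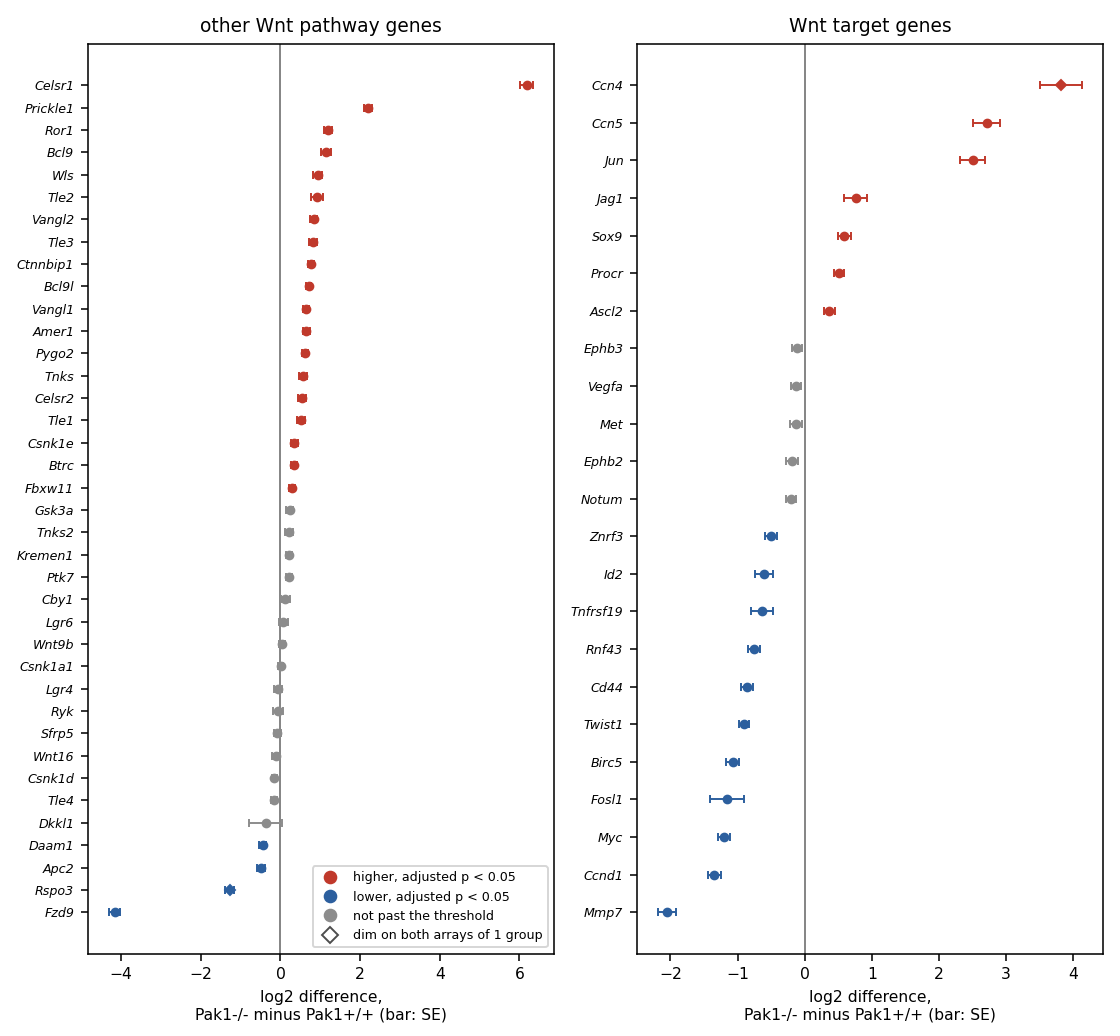
Log2 difference between Pak1-/- and Pak1+/+ (x axis) for the 38 tested genes of the further pathway list (left) and the 23 tested genes of the target list (right), with 2 arrays per genotype and bars for the SE of the limma fit. On the left 19 genes are higher and 4 lower, led by Celsr1 at 6.18 and Fzd9 at −4.17, while on the right 7 are higher and 11 lower.

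Genes known as targets of beta-catenin with Tcf factors split in both directions. Of 28 such genes, a list written with earlier results known, 23 were tested, 7 were higher, 11 were lower and 5 did not pass. The share past the threshold was 78.3%, beside 51.0% of all genes. Mmp7, a matrix metalloproteinase, was 8.56 and 8.73 in Pak1-/- and 10.54 and 10.85 in Pak1+/+ (−2.05, SE 0.13, adjusted p = 0.00063, 4.14-fold). Ccnd1, which encodes cyclin D1, was 15.83 and 15.97 against 17.31 and 17.18 (−1.34, SE 0.09, adjusted p = 0.00069, 2.54-fold). Myc was 12.95 and 12.79 against 14.12 and 14.02 (−1.20, SE 0.09, adjusted p = 0.00089, 2.30-fold). Myc, Ccnd1 and Jun are known to answer also to growth factors such as EGF. All cells received EGF, and its part in these differences was not tested. Birc5, which is tied to cell division in most tissues, fell by 1.07 on its brightest probe, and the other probes gave −1.37 and −1.38. Cd44 fell by 0.86, and Rnf43 and Znrf3, ubiquitin ligases that remove Frizzled receptors from the surface, fell by 0.76 (adjusted p = 0.0025) and 0.50 (adjusted p = 0.011).

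The targets that rose included members of the CCN family. Ccn4 (Wisp1) was 11.13 and 10.21 in Pak1-/- and 6.79 and 6.91 in Pak1+/+, where it was dim on both arrays, so it was at least 13.6-fold higher. It was bright enough to be tested only through the Pak1-/- arrays, so no p-value is given for it. Ccn5 (Wisp2) was 10.16 and 9.58 against 7.10 and 7.22 (2.71, SE 0.21, adjusted p = 0.00093, 6.55-fold). Jun, an immediate early gene, was 15.99 and 15.49 against 13.33 and 13.14 (2.51, SE 0.19, adjusted p = 0.00089, 5.68-fold). Fosl1 fell by 1.16 (adjusted p = 0.018, 2.24-fold). Its difference was −1.30 without Pak1-/- replicate 1 and −1.02 without replicate 2, but the call was lost in both fits (adjusted p = 0.065 and 0.098). The call of Id2 (−0.61) was lost without replicate 1 of Pak1-/- (adjusted p = 0.064) or of Pak1+/+ (0.066), and that of Jag1 (0.76) without Pak1+/+ replicate 1 (0.055) or 2 (0.061). Tnfrsf19 (−0.64) and Ascl2 (0.37) each lost theirs in 3 of the 4 such fits, all but that without Pak1-/- replicate 2 for Tnfrsf19 (adjusted p from 0.054 to 0.10) and that without Pak1+/+ replicate 1 for Ascl2 (0.064 to 0.10). Tnfrsf19 was at −0.42 without Pak1-/- replicate 1 and at −0.36 as the mean over its probes, and Ascl2 at 0.60 with the processed signal. Sp5, Apcdd1, Bambi and Tbx3 were dim on all 4 arrays, as were Lgr5 and Nkd1 among the 47.

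**Figure D4:**
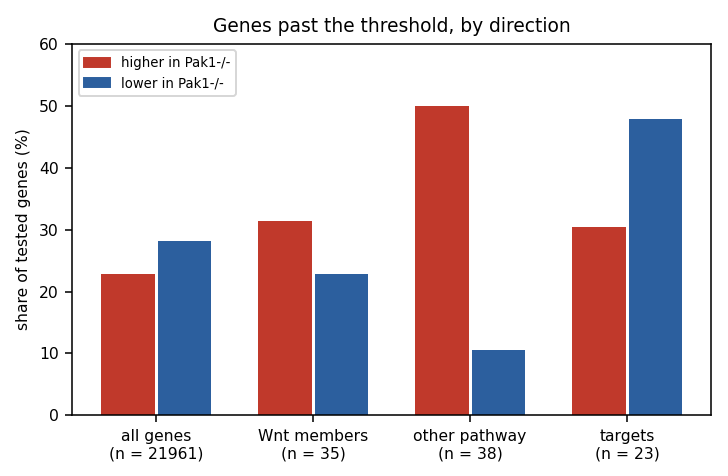
Share of tested genes (y axis, %) past an adjusted p of 0.05 in limma, split into higher (red) and lower (blue) in Pak1-/-, for all 21961 genes, the 35 tested Wnt members, the 38 further pathway genes and the 23 targets. The members lie near all genes (31.4% higher and 22.9% lower against 22.8% and 28.2%), the further pathway genes are higher in 50% and lower in 10.5%, and the targets are higher in 30.4% and lower in 47.8%.

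Among markers of cell types, the basal list had a share past the threshold (87.5%) above that of all genes (51.0%), while the luminal (41.7%), fibroblast (40%) and leukocyte (33.3%) lists lay below it. By direction, every luminal and fibroblast call was higher, which is 41.7% and 40% of those tested against 22.8% of all genes. Of the luminal markers, 5 of 12 tested were higher and none lower, with a mean of 13.56 and 13.64 log2 in Pak1-/- against 13.41 and 13.34 in Pak1+/+. Foxa1 rose by 1.71 and Cdh1 by 1.19. Krt19 and Esr1 were well above background on only 1 of the 2 Pak1+/+ arrays. Of the basal markers, 7 of 8 tested were higher and none was lower, with a mean over the 9 listed of 10.95 and 10.70 against 9.09 and 9.11. Krt17 differed most, by 4.92, followed by Oxtr with 3.84 and Krt14 with 2.83. Fibroblast markers averaged 7.71 and 7.60 against 7.30 and 6.89, with 2 of 5 tested higher (Postn and Col1a1) and Col3a1, Dcn, Lum and Pdgfrb dim on all 4 arrays. Postn, dim on both Pak1+/+ arrays, was at least 10.4-fold higher, and Col1a1 rose by 1.12. Of 6 leukocyte markers tested, Adgre1 fell by 1.05 and Ptprc by 0.45, the differences of Itgam (0.49), Cd3e (0.25), Csf1r (0.12) and Cd68 (−0.20) did not pass, and the median was −0.04. None of the 3 endothelial markers tested passed, and no adipocyte marker was bright enough to test. The part of basal and other cells in the differences of the Wnt genes was not tested, and in bulk RNA fewer cells of a type and less RNA per cell cannot be told apart.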

How the data were processed

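Total RNA of 4 samples was hybridized to one-colour (Cy3) arrays with 60-base probes. The deposited files, per the file headers, are Feature Extraction 9.5.3.1 output with linear spot intensities and mm9 coordinates. The authors also deposited log2 values that their methods describe as normexp corrected and quantile normalized (24008 of 39485 rows filled, 34 of the tested members), used here as an alternative. Here the spot intensities were corrected with normexp (offset 50) in limma 3.58.1 (R 4.3.3), put on the log2 scale, quantile normalized without control spots and averaged per probe. Probes that 2 or more of the 4 arrays measured well above background were tested (27229, 69.1%) with lmFit and eBayes, genotype as the only term, two-sided, with Benjamini-Hochberg adjustment over all of them at 0.05. The fit had 2 residual and 2.62 prior degrees of freedom, and an exact permutation test cannot go below 0.333. Each error is the SE of that fit. The number of arrays limits the precision.

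The brightest probe over the arrays stood for a gene. A probe dim on both arrays of a group gives "at least N-fold", against the higher of its own value and the lowest signal well above background on each array. Named were Pak1, all 47 members, and genes of the further lists past the threshold by at least 1 log2. Other genes of those lists were chosen after their values were seen. The members and all lists were chosen with earlier results of these data known. Names came from RefSeq (GRCm38.p6), which matched 61 of the 62 member probes by accession and 26055 of 32334 accessions in all. Promoters were those of the RefSeq table, and the place of probes in exons or untranslated regions was not annotated here. Alternatives were no offset, cyclic loess, the processed signal or the corrected signal scaled to the 75th percentile, no filter, a filter on all 4 arrays, the deposited log2 values, a replicate block, each sample left out, the mean over a gene's probes and an adjusted p of 0.01. The fit was tested on simulated data. The value of 1 gene of the target list is not reported here.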

Additional observations from a re-analysis of the deposited data

How the results depend on the processing

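Across the 13 alternatives that kept the adjusted threshold at 0.05, 39 of the 60 genes called in the 3 lists kept their direction and call in all of them. A further 5 (Wnt4, Wnt7a, Wif1, Rspo3 and Ccn4) kept theirs in 12, having no value under the filter on all 4 arrays. No called gene changed direction in the alternatives that gave it a value. Members higher in Pak1-/- numbered 9 to 13 and members lower 6 to 9, and leaving out 1 sample at a time gave 9 to 11 and 6 to 8. The further pathway list then gave 15 to 17 higher and 3 to 4 lower, the targets 5 to 6 higher and 8 to 10 lower, and all probes 10307 to 12164 calls. In these fits a lone sample is assumed to vary like the other group. At an adjusted p of 0.01, 42 of the 60 genes passed and 8878 probes were called in place of 14132, with 2 further pathway genes lower in place of 4 and 7 targets lower in place of 11. The members' median of 0.12 log2 became −0.048 both without a filter and with the filter on all 4 arrays, and 0.018 to 0.077 without 1 sample. Uncalled differences near 0 changed sign: with cyclic loess Apc was 0.042, Wnt1 0.043 and Fzd2 0.041, leaving out single samples gave −0.11 to 0.0084 for Apc and −0.12 to 0.023 for Wnt1. The cause was not tested. Tcf7l2, at −0.24 and not called, was 0.13 as the mean over its probes, which takes in the probes at 0.53 and 0.12. Some calls were gained with all samples kept. Fzd6 and Fzd7 passed with cyclic loess and with the filter on all 4 arrays. Tcf7l2 passed as lower with that filter, Fzd7 with the deposited values and Pak1 as higher with cyclic loess. As means over their probes, Fzd2 passed as lower (−0.48) and Nkd2 as higher. Replicate numbers were shared by label only (correlation of the replicate differences −0.028). With a replicate block 13211 probes were called, 9 members were higher and 7 lower, and Dvl1, Lrp5 and Lrp6 lost their calls (adjusted p = 0.065, 0.085 and 0.056). Without an offset, or with the processed signal, the differences of Wnt4, Wnt7a, Wif1, Ror1, Rspo3 and Ccn4, all low in 1 group, grew, so their size is uncertain, and Ascl2 grew to 0.60 with the processed signal. The mean over a gene's probes gave 0.24 for Lrp6, 0.19 for Celsr2 and −0.36 for Tnfrsf19, and cyclic loess −0.15 for Lrp5.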

Other observations

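Several dim Wnt genes were brighter on 1 array alone. On the array of Pak1+/+ replicate 2, Axin2 read 7.43 against 6.21 to 6.55 on the other arrays, Sfrp2 7.24 against 6.28 to 6.52, Kremen2 7.09 against 6.28 to 6.42 and Fzd10 6.94 against 6.07 to 6.13. On that array 62.2% of the probes were well above background, the lowest share of the 4, and the dimmest probe that still counted as above background was at 7.03 log2, against 6.55 to 6.70 on the others. Of these genes only Axin2 counted as well above background there. Dkkl1, which was bright enough to be tested, showed the same array apart, at 9.88 against 8.65 to 9.05. Rspo2 was at 7.41 on the array of Pak1-/- replicate 2 and at 6.05 to 6.21 on the others. Whether these values are transcript or array signal was not tested.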
